A study of Mus musculus with 6 samples.

Results

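*Lix1* and 9 genes of or beside the Hippo pathway were followed in satellite cells, which are muscle stem cells, from mice with wild-type or acetylation-deficient PAX7. The 10 genes were taken by symbol from 54115 genes with annotated transcripts, and all 10 were among the 17152 genes that had at least 5 reads in at least 2 libraries and were therefore tested. *Lix1* was chosen by its measured level, which was lower in *Pax7KR*, so its values in that contrast are a description and carry no test. The other 9 genes are its paralog *Lix1l*, the kinases *Stk3*, *Lats1* and *Lats2*, the co-activators *Yap1* and *Wwtr1* (the gene of TAZ), the DNA-binding partners *Tead1* and *Tead4*, and the TEAD cofactor *Vgll4*.

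The question was how the RNA of satellite cells differs when PAX7 cannot be acetylated on a lysine between its paired domain and its homeodomain. *Pax7KR* mice were homozygous for a Cas9 knock-in that puts arginine at this lysine, and *Pax7WT* mice carried the unedited allele. All mice were C57BL/6J animals of 6 to 8 weeks, and the knock-in is a germline allele that is not restricted to satellite cells. Cells were sorted from hindlimb muscle without injury as α7-integrin+ and CD34+, and as negative for CD31, CD11b, SCA-1 and CD45, and 3 libraries per genotype were made, each from 15 ng of RNA. How many mice went into a sample is not given in the sources used here, so p-values measure the spread between these samples.

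In the Hippo pathway, the kinases STK3 and STK4 with the adaptor SAV1 activate LATS1 and LATS2, which work with MOB1 and phosphorylate YAP and TAZ. Phosphorylated YAP and TAZ are held in the cytoplasm or degraded, whereas unphosphorylated YAP and TAZ enter the nucleus and bind TEAD factors on DNA, and VGLL4 competes with them for TEAD. LIX1 is the vertebrate homolog of the Drosophila protein Lowfat, which binds the cadherins Fat and Dachsous upstream of this pathway. In satellite cells, YAP and TAZ are known to act in activation and proliferation. Since the pathway is run by phosphorylation, RNA levels describe how much of each component's message was present and not the activity of the pathway.

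The libraries held 17822367 to 27908054 estimated reads. All 11 satellite cell markers were detected, *Pax7* among them, and their median log2 fold change between *Pax7KR* and *Pax7WT* was −0.02. *Pax7* itself was at 511 to 590 TPM (a unit scaled by transcript length), and read estimates per gene do not show the edited codon. Markers of other cells were detected as well. The summed level of 10 endothelial markers was 312 to 379 CPM (gene reads over normalised library size) in *Pax7WT* and 337 to 438 CPM in *Pax7KR*. These markers were detected although the sort removed CD31+ cells. *Tek* alone made up 184 to 231 CPM of this sum. The log2 fold change was above 0 for 10 of 10, with the groups overlapping for each. For 8 smooth muscle and pericyte markers the log2 fold change was below 0 for 8 of 8, with 301 to 393 CPM against 280 to 357 CPM. In both lists 0 markers had an unadjusted p under 0.05 in edgeR's quasi-likelihood test, against 4.68% of all genes. The 8 fibro-adipogenic markers summed to 1336 to 1465 CPM against 1386 to 1444 CPM, nearly all of it *Col3a1*, the 7 Schwann and glial markers to 107 to 129 CPM against 83.8 to 109 CPM, the 5 tenocyte markers to 39.1 to 80.3 CPM against 50.8 to 53.7 CPM, and the 8 myofibre markers to 48.1 to 55.9 CPM against 39.8 to 55.6 CPM. The 8 immune markers summed to 14.8 to 16.7 CPM against 12.4 to 16.8 CPM, with *Cd3e* listed at 0 reads in every library. In these lists the directions were mixed. Values were above 0 for 2 of 8 fibro-adipogenic, 3 of 7 Schwann and glial and 2 of 5 tenocyte markers. They were above 0 for 2 of 8 myofibre markers and 4 of the 7 immune markers tested. The part of other cells in the levels of the Hippo genes was not tested. In bulk RNA, fewer cells that express a gene and less RNA per cell cannot be told apart.

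TEAD proteins bind a short core motif in the DNA in front of their target genes, and the promoters of the 10 genes themselves were searched for it. RefSeq promoters on GRCm38.p6 were at hand for 7 of the 10 genes (*Lix1*, *Lix1l*, *Yap1*, *Wwtr1*, *Lats1*, *Lats2* and *Vgll4*). The TEAD core, GGAATG on either strand, was found in the 300-base promoter window of 4 of these 7 genes, against 16.58% of 27025 genes. The promoters of *Yap1*, *Wwtr1* and *Vgll4* are shown because they hold the core upstream of the start, and that of *Lix1* because the gene was chosen for its lower level. Each is printed from 5′ to 3′ on the gene's own strand, with the TEAD core in capitals, and ends before the first transcribed base in RefSeq or, for *Lix1*, in GENCODE. The *Vgll4* stretch lies within an intron of a longer *Vgll4* transcript, and the far end of the *Yap1* stretch overlaps an exon of *Gm45494* on the other strand.
*Lix1* promoter, chr17:17402436-17402671, plus strand: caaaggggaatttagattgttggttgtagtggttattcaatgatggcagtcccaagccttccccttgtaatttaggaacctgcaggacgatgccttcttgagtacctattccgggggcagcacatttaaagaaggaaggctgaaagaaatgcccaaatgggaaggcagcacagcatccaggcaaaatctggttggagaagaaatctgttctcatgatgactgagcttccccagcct
*Yap1* promoter, chr9:8004597-8004846, minus strand: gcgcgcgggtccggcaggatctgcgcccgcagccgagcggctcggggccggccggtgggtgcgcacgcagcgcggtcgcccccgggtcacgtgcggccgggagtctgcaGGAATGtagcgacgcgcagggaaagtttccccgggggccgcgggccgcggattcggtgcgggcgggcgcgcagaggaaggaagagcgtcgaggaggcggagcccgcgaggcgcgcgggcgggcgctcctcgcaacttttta
*Wwtr1* promoter, chr3:57575911-57576160, minus strand: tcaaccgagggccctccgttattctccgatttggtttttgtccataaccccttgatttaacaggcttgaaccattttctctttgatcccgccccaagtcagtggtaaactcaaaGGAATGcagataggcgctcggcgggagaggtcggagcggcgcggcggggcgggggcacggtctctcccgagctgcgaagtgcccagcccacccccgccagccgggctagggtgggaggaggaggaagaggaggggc
*Vgll4* promoter, chr6:114969204-114969453, minus strand: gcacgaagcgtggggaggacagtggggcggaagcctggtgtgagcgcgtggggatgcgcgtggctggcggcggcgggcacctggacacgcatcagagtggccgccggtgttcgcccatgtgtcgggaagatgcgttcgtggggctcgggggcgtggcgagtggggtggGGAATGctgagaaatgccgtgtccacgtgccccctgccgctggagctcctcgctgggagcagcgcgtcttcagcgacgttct

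The first base of the core lay at −141 in *Yap1*, at −136 in *Wwtr1* and at −82 in *Vgll4* relative to the RefSeq start of the printed promoter. Relative to a second RefSeq start of *Wwtr1*, the same core lay at −170. In *Lats2* the first base of the core was base 5 of the transcribed sequence. No core was found in the windows of *Lix1*, *Lix1l* and *Lats1*. Among 16 YAP and TAZ target genes with a promoter in the table, 7 held the core: *Ptpn14*, *Ccn1*, *Axl*, *Amotl2*, *Lats2*, *Crim1* and *Ankrd1*. The palindromic homeobox motif, TAAT and ATTA with any 2 bases between them, of the kind bound by paired-class homeodomains, was in 0 of the 7 genes and 0 of the 16 targets, against 0.46% of all genes. These matches describe letters in a window and not binding. At 0.46% of all genes, 0 is the likely homeobox count in lists this short, and sites outside the 300-base window were not searched.

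*Lix1* (ENSMUSG00000047786, GRCm38 chr17:17402672-17459387, plus strand) was present at 39.3, 31.7 and 39.0 CPM in *Pax7WT* replicates 1, 2 and 3 and at 23.8, 23.4 and 24.5 CPM in *Pax7KR* replicates 1, 2 and 3. The *Pax7WT* libraries were spread over a wide range with replicate 2 the lowest, the *Pax7KR* libraries lay close together, and the groups did not overlap. The mean was 36.7 ± 4.27 CPM in the first group and 23.9 ± 0.588 CPM in the second (SD, n = 3 each). This is a difference of −0.62 on the log2 scale, or −34.9%. These are the values that chose the gene. For scale, 10.3% of all tested genes had groups without overlap, 5.19% with *Pax7KR* lower. Leaving out any single library placed the log2 difference of *Lix1* between −0.71 and −0.57. Per transcript length, *Lix1* was at 20.5 ± 2.34 TPM (SD, n = 3) in *Pax7WT* and 14.1 ± 0.189 TPM (SD, n = 3) in *Pax7KR*.

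Each library held 519 to 1068 estimated reads of *Lix1*. The transcript Lix1-201, of 3116 bases, carried most of the message. It was at 18.3, 15.6 and 18.9 TPM in *Pax7WT* and 12.7, 11.7 and 12.9 TPM in *Pax7KR*, again without overlap. The second coding transcript, Lix1-202 of 2678 bases, was at 3.77, 2.23 and 2.78 TPM in *Pax7WT* and 1.59, 2.43 and 1.05 TPM in *Pax7KR*, where the groups overlapped. Of the 31-base sequences of *Lix1* transcripts, 16.3% also occur in transcripts of other genes, most of them in the processed pseudogene *Gm11578*, whose estimate was 0, 0 and 30 reads in *Pax7WT* and 23, 30 and 18 reads in *Pax7KR*. With the reads of *Gm11578* added to *Lix1*, the log2 fold change was −0.58. The antisense gene *Gm26873* overlaps the start of *Lix1* and was listed at 0 to 2 reads per library, from a library kit that keeps the strand.

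**Figure D1:**
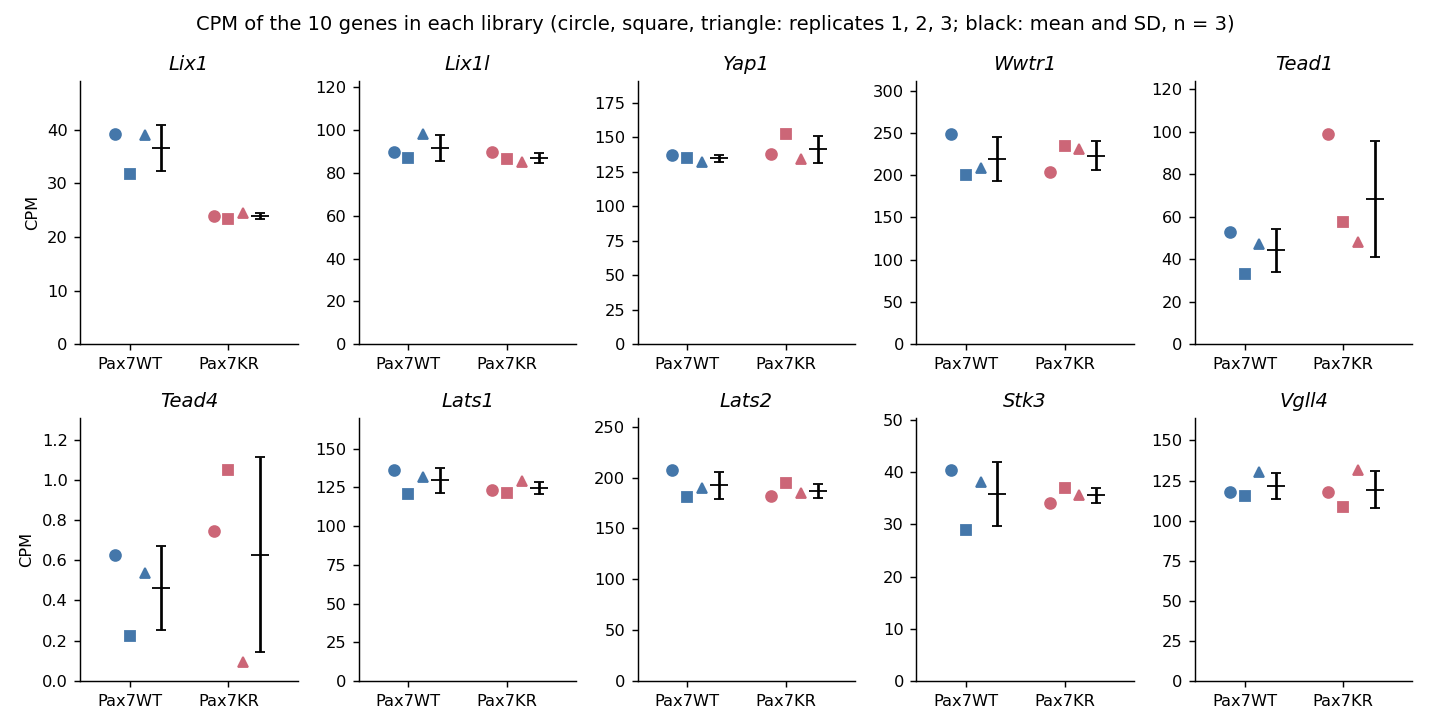
CPM of the 10 genes in each library (circle, square and triangle for replicates 1, 2 and 3), with the mean and SD of each genotype (n = 3) in black and each axis starting at 0. The *Lix1* libraries separate by genotype, *Tead1* has 1 high *Pax7KR* library at 99.0 CPM, and in the other panels the genotypes overlap.

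*Lix1l* (ENSMUSG00000049288, chr3:96601149-96626171, plus strand), the only other gene of the Lix1 family, was at 89.7, 87.0 and 98.3 CPM in *Pax7WT* and 89.7, 86.5 and 84.9 CPM in *Pax7KR*. The libraries overlapped, with *Pax7WT* replicate 3 the highest. edgeR put the difference at −0.08 on the log2 scale (SE 0.07, adjusted p = 0.998), with a 95% interval from −14.1% to 4.80%. *Lix1l* was the more abundant of the pair per transcript length in every library. The ratio of *Lix1l* to *Lix1* TPM was 2.15, 2.55 and 2.42 in *Pax7WT* and 3.51, 3.50 and 3.26 in *Pax7KR*, which follows the choice of *Lix1* and is given as a description.

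Of the other 9 genes, 0 passed an adjusted p of 0.1 in edgeR's quasi-likelihood test, where 0% of all tested genes did, and 0 had an unadjusted p under 0.05, against 4.68% of all genes. DESeq2 called 0 of these 9 as well, where it called 0.175% of all genes with its own size factors and 0.334% with a transcript length offset, under which *Tead4* had no adjusted p. The log2 fold change was above 0 for 4 of the 9 and below 0 for 5, with a median of −0.02. Over all tested genes the median was −0.0037, with 51% below 0.

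For the kinases that restrain YAP and TAZ, the genotypes differed by less than the spread between libraries. *Stk3* (ENSMUSG00000022329, chr15:34875496-35178921, minus strand), the kinase MST2 at the top of the cassette, was at 40.4, 29.0 and 38.2 CPM in *Pax7WT* and 34.0, 36.9 and 35.7 CPM in *Pax7KR*. All *Pax7KR* libraries lay inside the *Pax7WT* range. On the log2 scale the difference was −0.02 (SE 0.11, edgeR adjusted p = 0.998), with a 95% interval from −16.5% to 17.2%. Its sign turned when transcript length was taken into account.

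*Lats1* (ENSMUSG00000040021, chr10:7681214-7716460, plus strand), a kinase that phosphorylates YAP and TAZ directly, was at 136, 121 and 132 CPM in *Pax7WT* and 124, 122 and 129 CPM in *Pax7KR*. The *Pax7KR* values again lay inside the *Pax7WT* range, and the log2 difference was −0.05 (SE 0.06, edgeR adjusted p = 0.998), with an interval from −12.5% to 5.89%. *Lats2* (ENSMUSG00000021959, chr14:57689662-57758388, minus strand), its partner kinase and a transcriptional target of YAP, was at 207, 181 and 189 CPM in *Pax7WT* and 182, 195 and 185 CPM in *Pax7KR*. The groups overlapped, with a log2 difference of −0.04 (SE 0.07, edgeR adjusted p = 0.998) and an interval from −11.9% to 7.13%. Of the 31-base sequences of *Lats2*, 41.7% are shared with the readthrough gene *Gm49361*, which was listed at 0 to 45 reads per library. With those reads added to *Lats2* its log2 fold change was −0.03.

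For the 3 kinase genes the intervals together reach from −16.5% to 17.2%. The balance within each pair of related genes was also read. *Stk3* made up 60.8 ± 3.22% (SD, n = 3) of the summed TPM of *Stk3* and *Stk4* in *Pax7WT* and 58.1 ± 0.771% (SD, n = 3) in *Pax7KR* (exact permutation test, two-sided, p = 0.3, adjusted p = 0.6 over 4 such shares). *Lats1* made up 33.4 ± 0.700% (SD, n = 3) of *Lats1* and *Lats2* in *Pax7WT* and 33.6 ± 1.42% (SD, n = 3) in *Pax7KR* (exact permutation test, two-sided, p = 0.9, adjusted p = 0.9). *Lats2* was thus the main *Lats* transcript in all 6 libraries. With 3 samples against 3 such a test cannot go below 0.1.

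The other genes of the core cassette gave 1 difference at the unadjusted level. *Mob1b*, which encodes an activator of LATS kinases, was at 65.9, 63.2 and 64.7 CPM in *Pax7WT* and 54.4, 52.1 and 58.1 CPM in *Pax7KR*, and the groups did not overlap. *Mob1b* differed by −0.24 on the log2 scale (SE 0.07, unadjusted p = 0.00425 and adjusted p = 0.992 in edgeR), so it did not pass over all genes. Per transcript length it was at 18.6, 18.9 and 18.8 TPM in *Pax7WT* and 18.5, 16.4 and 18.3 TPM in *Pax7KR*. In TPM, which does not carry the library normalisation of CPM, the groups were barely apart, with means of 18.8 and 17.8 TPM. How much of the smaller gap follows from transcript length was not tested. Its close paralog *Mob1a* was at 134 and 132 CPM on average (log2 difference −0.03), *Stk4* at 42.7 and 44.5 CPM (0.06) and the adaptor *Sav1* at 69.2 and 71.9 CPM (0.05).

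The co-activators YAP and TAZ are the proteins on which the cascade converges. *Yap1* (ENSMUSG00000053110, chr9:7931999-8004596, minus strand) was at 137, 135 and 132 CPM in *Pax7WT* and 138, 153 and 134 CPM in *Pax7KR*. *Pax7KR* replicate 2 was the highest and the other *Pax7KR* libraries were at the level of *Pax7WT*. In edgeR the log2 difference came to 0.07 (SE 0.06, adjusted p = 0.998), with an interval from −4.66% to 15.6%. Per transcript length *Yap1* was at 57.4, 56.5 and 56.4 TPM in *Pax7WT* and 61.6, 68.5 and 59.7 TPM in *Pax7KR*, without overlap. TPM was taken as deposited, without the library normalisation used for CPM. The share of all genes without overlap in TPM was not counted, so this gap has no background beside it. With a transcript length offset edgeR gave a log2 difference of 0.09 (adjusted p = 0.981).

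*Wwtr1* (ENSMUSG00000027803, chr3:57455649-57575910, minus strand) was at 249, 201 and 209 CPM in *Pax7WT* and 204, 234 and 231 CPM in *Pax7KR*. The highest value belonged to *Pax7WT* replicate 1, and the groups overlapped over most of their range. For *Wwtr1* the log2 difference was 0.02 (SE 0.09, edgeR adjusted p = 0.998), with an interval from −11.0% to 15.8%, and its sign turned when single libraries were left out. *Yap1* made up 41.1 ± 2.61% (SD, n = 3) of the summed TPM of both co-activators in *Pax7WT* and 41.9 ± 1.39% (SD, n = 3) in *Pax7KR* (exact permutation test, two-sided, p = 0.6, adjusted p = 0.8 over 4 shares). *Wwtr1* was the more abundant co-activator message in all 6 libraries.

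**Figure D2:**
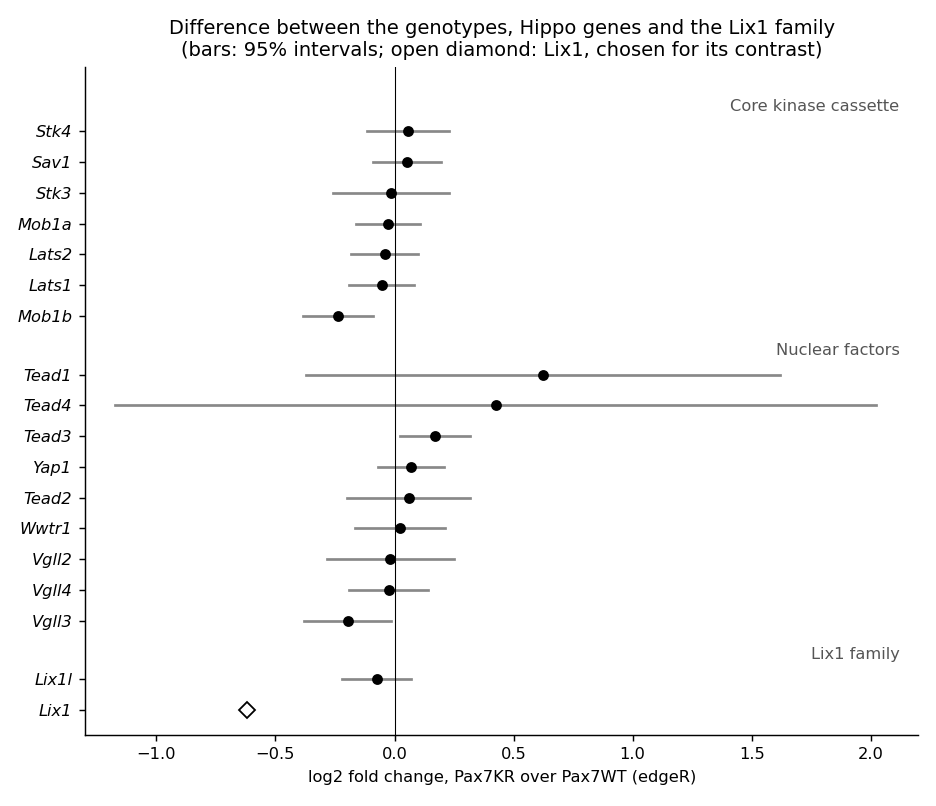
Log2 fold change of *Pax7KR* over *Pax7WT* with 95% intervals (edgeR, n = 3 per genotype) for the core kinase cassette, the nuclear factors and *Lix1l*; the open diamond is *Lix1* at −0.62, drawn without an interval because the gene was chosen for this value. The points of *Stk3*, *Lats1*, *Lats2*, *Yap1*, *Wwtr1* and *Vgll4* lie within 0.07 of 0, and those of *Tead1* and *Tead4* have wide intervals.

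Among the TEAD factors, *Tead1* (ENSMUSG00000055320, chr7:112679318-112906807, plus strand) was the least settled of the abundant members. It was at 52.7, 32.9 and 47.0 CPM in *Pax7WT* and 99.0, 57.7 and 47.9 CPM in *Pax7KR*. *Pax7KR* replicate 1 stood above all other libraries and replicate 3 lay inside the *Pax7WT* range. The difference between the means was 0.62 on the log2 scale (SE 0.37, edgeR adjusted p = 0.992), with an interval from −22.8% to 207%, so it was not distinguishable from the spread between samples. Without *Pax7KR* replicate 1 the log2 fold change was 0.25.

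The high value in that library lay on a single long transcript. Tead1-201, of 9964 bases, had 676, 407 and 746 reads in *Pax7WT* and 2068, 740 and 779 reads in *Pax7KR*. Tead1-202, of nearly the same length at 9480 bases, had 533, 43 and 101 reads in *Pax7WT* and 0, 467 and 52 reads in *Pax7KR*, so the library with the most reads on the former had none on the latter. The short coding transcript Tead1-207, of 1248 bases, had 112, 58 and 38 reads in *Pax7WT* and 100, 74 and 82 reads in *Pax7KR*, with overlap. Salmon divided the reads between these overlapping forms, and no error of that division was deposited. After correction for mean transcript length, the log2 fold change of *Tead1* was 0.39.

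*Tead4* (ENSMUSG00000030353, chr6:128224288-128300823, minus strand) had 17, 4 and 11 reads in *Pax7WT* and 17, 25 and 2 reads in *Pax7KR*. These counts overlap fully and leave the log2 difference of 0.42 (SE 0.74, edgeR adjusted p = 0.998) without a settled sign, with an interval on the log2 scale from −1.17 to 2.02. A difference in *Tead4* was not detectable at this depth.

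The other TEAD genes complete the pool on which YAP and TAZ act. *Tead3* was at 49.3, 49.6 and 47.7 CPM in *Pax7WT* and 57.3, 54.1 and 53.6 CPM in *Pax7KR*, without overlap (log2 difference 0.17, SE 0.07, unadjusted p = 0.0258 and adjusted p = 0.992 in edgeR). *Tead2* was at 11.8 and 12.3 CPM on average (0.06). In the summed TPM of the 4 genes, *Tead3* held 53.6 ± 3.62% (SD, n = 3) in *Pax7WT* and 53.9 ± 1.60% (SD, n = 3) in *Pax7KR*, and so made up most of the pool in both genotypes.

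*Tead1* held 25.5%, 20.1% and 18.8% of this pool in *Pax7WT* and 28.3%, 23.3% and 23.4% in *Pax7KR*. The shares overlapped, and the mean was 21.5% in *Pax7WT* (SD 3.52, n = 3) and 3.50 percentage points higher in *Pax7KR* (SD 2.86, n = 3), a difference that did not pass (exact permutation test, two-sided, p = 0.3, adjusted p = 0.6 over 4 shares). *Tead2* held 24.2 ± 5.58% (SD, n = 3) and 20.6 ± 4.03% (SD, n = 3), and *Tead4* 0.767 ± 0.732% (SD, n = 3) and 0.553 ± 0.364% (SD, n = 3).

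**Figure D3:**
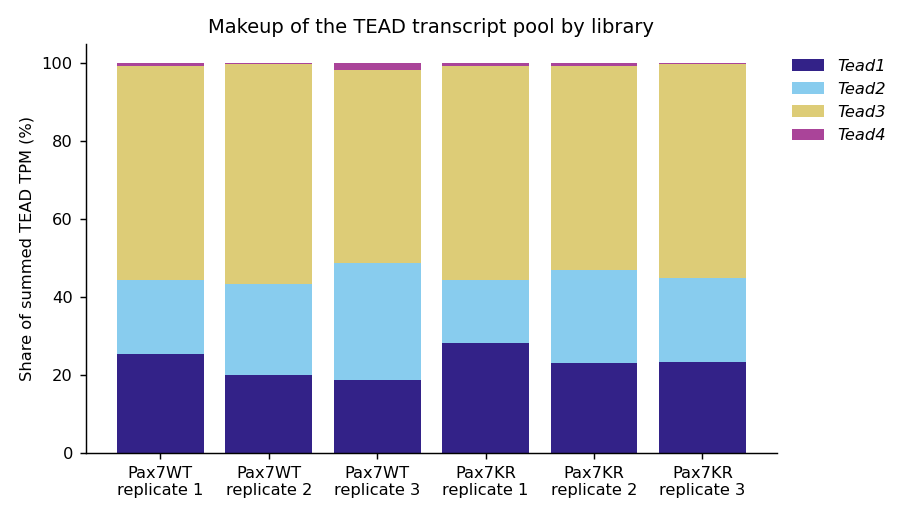
Share of each TEAD gene in the summed TPM of the 4 TEAD genes, 1 bar per library. *Tead3* is the largest part of every bar (49.5% to 56.3%), *Tead1* takes 18.8% to 28.3%, and *Tead4* is a thin band of 0.133% to 1.59%.

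*Vgll4* (ENSMUSG00000030315, chr6:114860628-114969994, minus strand), which competes with YAP and TAZ for TEAD, was at 118, 116 and 131 CPM in *Pax7WT* and 118, 109 and 131 CPM in *Pax7KR*. The libraries of both genotypes covered nearly the same range. Between them *Vgll4* differed by −0.03 on the log2 scale (SE 0.08, edgeR adjusted p = 0.998), with an interval from −12.4% to 10.3%. Its relative *Vgll3* was at 348, 278 and 297 CPM in *Pax7WT* and 249, 281 and 275 CPM in *Pax7KR*, with overlap (log2 difference −0.20, SE 0.08, unadjusted p = 0.0363 and adjusted p = 0.992 in edgeR), and *Vgll2* at 39.9 and 39.5 CPM on average (−0.02). *Vgll1* was listed at 0 reads in every library.

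Transcript estimates show which forms of the members these cells made. Yap1-202, of 4115 bases, carried 47.8% to 65.8% of the *Yap1* TPM and Yap1-201, of 4171 bases, 27.9% to 49.2%. Lats1-202 carried 67.8% to 81.7% of *Lats1*, and Lats2-201 carried 85.6% to 94.5% of *Lats2*. Nearly all the message of *Wwtr1*, *Stk3* and *Lix1l* was on the first coding transcript of each gene. *Vgll4* was divided between the coding Vgll4-201 (47.9% to 55.2%) and Vgll4-205 (39.7% to 48.2%), which is annotated as a processed transcript without a reading frame. For the transcripts named here the genotypes overlapped in their shares.

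Per transcript length, the 10 genes covered a wide range of levels. Over the 6 libraries the order of mean TPM from the lowest was *Tead4* at 0.530, *Lix1* at 17.3, *Tead1* at 18.3, *Stk3* at 22.0, *Lats1* at 33.9, *Lix1l* at 48.4, *Yap1* at 60.0, *Lats2* at 67.3, *Wwtr1* at 84.9 and *Vgll4* at 105. Over both genotypes, the ranges of *Lix1* (13.9 to 22.1 TPM), *Tead1* (13.7 to 26.6 TPM) and *Stk3* (17.3 to 24.6 TPM) overlapped. Those of *Yap1* (56.4 to 68.5 TPM) and *Lats2* (62.9 to 70.8 TPM) overlapped too, although *Lats2* was above *Yap1* in every library. Within *Pax7KR*, *Lix1* (13.9 to 14.3 TPM) lay below *Tead1* (17.6 to 26.6 TPM) and *Stk3* (21.6 to 23.5 TPM) in every library. Within *Pax7WT*, *Lix1* (17.8 to 22.1 TPM) lay above *Tead1* (13.7 to 18.1 TPM) in every library, the reverse of their order in *Pax7KR*. This is a description, since *Lix1* was chosen for its lower level in *Pax7KR*. The *Pax7WT* range of *Lix1* overlapped with that of *Stk3* (17.3 to 24.6 TPM), and *Yap1* (56.4 to 57.4 TPM) lay below *Lats2* (62.9 to 70.5 TPM). The other neighbours in this order were apart in all libraries. *Tead4* was the member nearest to the limit of detection, and *Vgll4*, summed over all its transcripts, was the most abundant. That sum includes Vgll4-205, which has no reading frame. The coding Vgll4-201 alone was at 46.6 to 63.0 TPM, below Wwtr1-201 (75.1 to 92.5 TPM) in every library. Outside the 10 genes, *Vgll3* was at 103 TPM, near the summed level of *Vgll4*. *Sav1* was at 52.7 TPM, *Stk4* at 15.0 TPM, and the cadherins *Fat4* and *Dchs1* at 8.63 and 11.1 TPM.

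**Figure D4:**
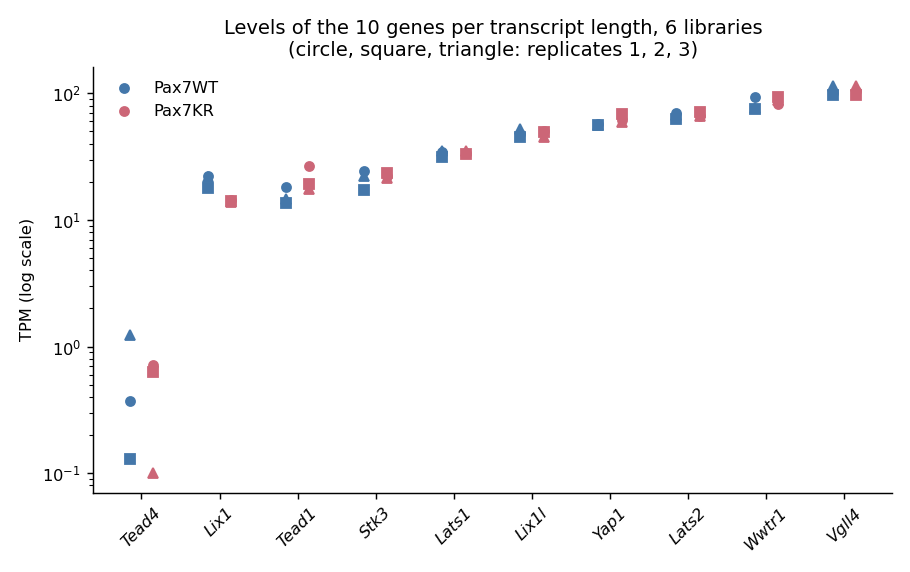
TPM of the 10 genes on a log scale, ordered by their mean over the 6 libraries, with 1 point per library (circle, square and triangle for replicates 1, 2 and 3). TPM does not carry the library normalisation of CPM. On this scale the genotypes separate for *Lix1* and, by a smaller step, for *Yap1*, which overlapped in CPM. *Tead4* lies at 1.23 TPM or lower, and the other genes lie between 13.7 and 114 TPM.

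The rest of the pathway was read from 4 lists with 55 genes in all, 8 of them members. Of the other 47 genes 44 were tested. edgeR called 0 of the 44 at an adjusted p of 0.1, and 5 had an unadjusted p under 0.05, against 4.68% of all genes, 3 of them higher in *Pax7KR* (*Fat4*, *Tead3* and *Strn*) and 2 lower (*Mob1b* and *Vgll3*). DESeq2 called 1, *Fat4*, where it called 0.175% of all genes with its own size factors and 0.334% with a transcript length offset. Groups did not overlap for 5 genes that were higher (*Fat4*, *Tead3*, *Strn*, *Wwc2* and *Wtip*) and 1 that was lower (*Mob1b*), where the background was 5.14% and 5.19%. Values above 0 were found for 23 of the 44 genes and values below 0 for 21, with a median of 0.0077.

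By list, members included, the 7 genes of the core cassette had a median log2 fold change of −0.03, from −0.24 for *Mob1b* to 0.06 for *Stk4*. The 31 upstream regulators, which include the scaffold *Nf2* (99.7 and 101 CPM, 0.02), had 17 genes above 0 and 14 below, with a median of 0.02. Among those at 1 CPM or more the highest was *Limd1*, a LATS inhibitor, at 0.18 (SE 0.09) and the lowest *Amotl1*, a YAP-binding angiomotin, at −0.19 (SE 0.12). The 9 nuclear factors tested had 6 above 0 and 3 below, with a median of 0.06.

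The Fat and Dachsous cadherins are the receptor and ligand to which the fly homolog of LIX1 binds. Of 7 genes on this list 5 were tested, 2 of them above 0 and 3 below. *Fat4*, the closest mammalian relative of fly Fat, was at 65.3, 64.1 and 75.7 CPM in *Pax7WT* and 80.6, 110 and 108 CPM in *Pax7KR*, with no overlap. *Fat4* differed by 0.54 on the log2 scale (SE 0.12, unadjusted p = 0.00248 and adjusted p = 0.959 in edgeR), and it passed in DESeq2 but not in edgeR. *Fat4* is among the genes the study displayed from these same libraries. *Dchs1*, the ligand of FAT4, averaged 65.3 ± 5.74 CPM in *Pax7WT* and 64.3 ± 0.741 CPM in *Pax7KR* (SD, n = 3 each), a log2 difference of −0.02.

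Genes that YAP and TAZ drive through TEAD serve as a readout of the pathway. Of 22 such targets 21 were tested, and edgeR called 0, where 0% of all genes were called. In edgeR 1 target had an unadjusted p under 0.05, against 4.68% of all genes. DESeq2 called 1, where it called 0.175% of all genes with its own size factors and 0.334% with a transcript length offset. In both cases the target was *Tgfb2*. Groups did not overlap for 2 targets that were higher in *Pax7KR* (*Nuak2* and *Dock5*) and 1 that was lower (*Tgfb2*), against 5.14% and 5.19% of all genes. Of the targets, 6 lay above 0 and 15 below, with a median of −0.05, against −0.0037 and 51% below 0 over all genes. The target median was −0.12 without *Pax7WT* replicate 2, −0.001 without *Pax7KR* replicate 3 and 0.0086 without *Pax7WT* replicate 1, so this lean rests on single libraries. *Ccn1* was at 689, 326 and 594 CPM in *Pax7WT* and 420, 684 and 365 CPM in *Pax7KR*, and the genotypes overlapped over almost the whole range (log2 difference −0.13, SE 0.41). *Ccn2* was at 125, 107 and 137 CPM in *Pax7WT* and 132, 126 and 98.9 CPM in *Pax7KR*, also with overlap (−0.05). *Ankrd1* averaged 136 ± 31.8 CPM in *Pax7WT* and 121 ± 19.2 CPM in *Pax7KR* (SD, n = 3 each), a log2 difference of −0.18. *Amotl2* averaged 259 ± 21.9 CPM and 250 ± 24.4 CPM (SD, n = 3 each), a log2 difference of −0.05.

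The spread of *Ccn1* within a genotype was wide, and *Ccn1* is itself an early response gene. *Fos* was at 6729, 3483 and 6606 CPM in *Pax7WT* and 4969, 5577 and 5338 CPM in *Pax7KR*, with *Pax7WT* replicate 2 the lowest, as it was for *Ccn1*. The 18 immediate early genes, which dissociation of tissue also induces, summed to 19967 to 37965 CPM in *Pax7WT* and 28491 to 33280 CPM in *Pax7KR*, with 9 above 0 and 9 below. They ran from −0.82 for *Egr3* to 0.27 for *Ier3*. Their part in the target levels was not tested.

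At the ends of the target list, *Tgfb2*, a secreted TGF-beta ligand, was at 77.0, 60.3 and 62.3 CPM in *Pax7WT* and 41.4, 43.7 and 47.1 CPM in *Pax7KR*, without overlap. It differed by −0.60 on the log2 scale (SE 0.10, edgeR adjusted p = 0.302), and it passed in DESeq2. It is among the genes the study displayed from these same libraries, so it is not independent evidence for a direction of the list. *Nuak2*, a kinase, was the highest at 1 CPM or more, at 1.84 and 3.00 CPM on average (log2 difference 0.70, SE 0.33, edgeR adjusted p = 0.992).

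**Figure D5:**
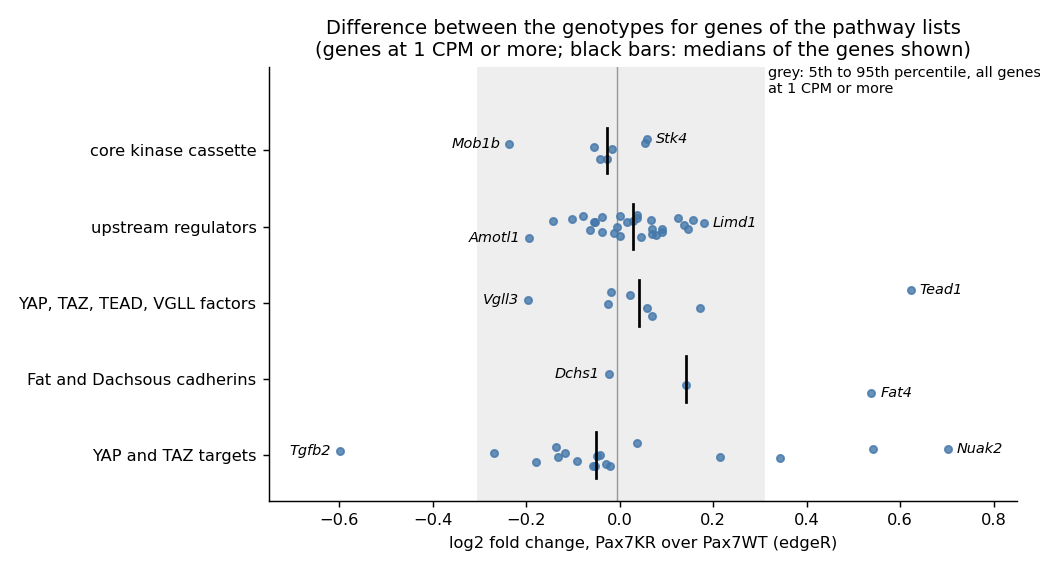
Log2 fold change of *Pax7KR* over *Pax7WT* (edgeR) for the genes of 5 lists at 1 CPM or more, with the median of the genes shown as a black bar, the lowest and highest gene named, and the range from the 5th to the 95th percentile of 13279 genes at 1 CPM or more (−0.30 to 0.31) in grey. The core cassette and the upstream regulators shown lie inside this range, as do the nuclear factors except *Tead1*.

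The genes most like *Lix1* over the 6 libraries were read from Pearson's r of log2(CPM + 1) among 9520 genes at 10 CPM or more. They were *Eloa*, a subunit of the elongin complex, at 0.987, *Snapc1*, of the complex that starts small nuclear RNA genes, at 0.979, *Ice2* at 0.977, *Mta3*, of a chromatin remodelling complex, at 0.976 and the transcription factor *Nfib* at 0.972. The 6 points share their depth and the split by genotype, so these values are a description and carry no p. Their own differences were smaller than that of *Lix1*, with log2 fold changes from −0.23 for *Ice2* to −0.13 for *Snapc1*. Among the other members, r with *Lix1* ran from −0.52 for *Yap1* and −0.46 for *Tead1* to 0.66 for *Lix1l* and 0.67 for *Lats1*.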

How the data were processed

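RNA of 3 *Pax7WT* and 3 *Pax7KR* satellite cell samples was analysed, grouped by the genotype in their labels. The authors quantified paired reads with Salmon (version 1.3.0) against GENCODE mouse transcripts on GRCm38 and deposited an estimated count per transcript, not normalised and not always whole. The authors also deposited TPM, scaled by transcript length to the same total in every library. Their own DESeq2 (version 1.28.1) table of the genotype comparison, with fold changes and p-values, was not used.

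Estimated counts were summed per gene through an earlier GENCODE release, which matched 139791 of 140992 transcripts, and rounded. Reads on transcripts without a match made up 0.592% to 0.634% per library. Genes reaching 5 reads in at least 2 libraries entered edgeR (4.0.16, TMM, robust quasi-likelihood, genotype only, R 4.3.3), with Benjamini-Hochberg adjustment over 17152 genes and a cut-off of 0.1. Standard errors and 95% intervals were derived from the F statistic. DESeq2 (version 1.42.0) was an alternative. Shares of TPM were compared by exact permutation tests (scipy 1.17.1, Python 3.11.15). The main edgeR fit and DESeq2 with its own size factors were tested on simulated data, and the other settings were not.

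No library was a copy of another, since replicates differed by more than sampling noise. Depth, from 17822367 to 27908054 reads, limits genes with few reads such as *Tead4*. Sequence shared between genes was counted over 31-base stretches. The members and gene lists were chosen with earlier results of these data known. By rule, all members, fixed pathway genes, the extreme genes of each pathway list at 1 CPM or more and the 5 genes most like *Lix1* are named. The genes with an unadjusted p under 0.05 or without overlap, and *Vgll1*, *Cd3e*, *Col3a1* and *Fos*, were added after their values were seen.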

Additional observations from a re-analysis of the deposited data

How the results depend on the processing

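Over all genes, where edgeR called 0, DESeq2 called 30 with its own size factors and 45 with a transcript length offset, and edgeR called 157 with no filter on low reads and 13 with a replicate block. Leaving out each library in turn gave 1 to 32 calls, the most without *Pax7KR* replicate 3. The count of members past the cut-off was 1 in place of 0 in DESeq2 with either scaling, without the filter and with the replicate block, and 0 to 1 with a library left out. That 1 was always *Lix1*, chosen for this contrast, so these counts test nothing, and 0 of the other 9 passed in any setting. Of the Hippo pathway genes, 1, *Fat4*, was called in both DESeq2 fits and without the filter, and 0 to 1 with a library left out (*Fat4* without *Pax7KR* replicate 1). Of the YAP and TAZ targets, 1, *Tgfb2*, was called in the same 3 settings, and 0 to 1 with a library left out (*Tgfb2* without *Pax7KR* replicate 3). The cause of these differences was not tested.

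No pairing of the samples by replicate number was seen: the correlations between same-numbered libraries were 0.002, 0.045 and −0.056. Not every library correlated best with its own number. With 3 libraries per genotype, these values cannot exclude that same-numbered samples were handled together.

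The log2 fold change of *Lix1* lay between −0.71 and −0.57 with a library left out and between −0.62 and −0.58 in 9 other settings, of which the addition of *Gm11578*, like that of *Gm49361* to *Lats2*, was chosen after seeing the data. That of *Tead1* ranged from 0.25 without *Pax7KR* replicate 1 to 0.82, and was 0.39 with the length offset. The share of *Tead1* in the TEAD pool differed by 7.30 percentage points in estimated reads, against 3.50 in TPM, and by 1.85 to 5.49 points with a library left out. Signs turned for members near 0 or with few reads. *Tead4* was at −0.19 (DESeq2) and −0.0901 (edgeR) with the length offset and between −0.15 and 0.92 with a library left out. *Stk3* was at 0.0032 and 0.0028 with the length offset and between −0.145 and 0.0793 with a library left out. With a library left out, *Wwtr1* lay between −0.038 and 0.12, *Lats2* between −0.0836 and 0.0136, and *Vgll4* between −0.0986 and 0.0381. The share of *Yap1* among both co-activators differed by −0.734 to 1.69 percentage points with a library left out, and that of *Lats1* by −0.346 to 1.02 points and by −0.21 points in estimated reads, so neither has a settled sign. The median of the YAP and TAZ targets was between −0.12 and 0.0086 with a library left out. The log2 fold changes of *Lix1l*, *Yap1*, *Tead1* and *Lats1* and the share of *Stk3* kept their direction in all settings run. That of *Lix1* did so too, which follows from its choice in these same libraries and tests nothing.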
